A study of Homo sapiens with 4 samples.

Results

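The synaptotagmin genes SYT1, SYT3, SYT4, SYT5, SYT7, SYT9, SYT11, SYT13, SYT14 and SYT17 were followed in neuroblastoma cells with and without knockdown of METTL14. The cells were of the established human line SK-N-BE(2). METTL14 encodes a subunit of the methyltransferase complex that places N6-methyladenosine (m6A) on RNA. These 10 genes of the 60671 in the count table were taken by symbol, because members of the family had been seen to move in opposite directions between the same libraries. Their differences between the groups are therefore given as a description, with no p-value. Where a member is said to be called at the threshold used for all genes, this is part of that description. The family had 18 genes in the table, and the other 8 were SYT2, SYT6, SYT8, SYT10, SYT12, SYT15, SYT15B and SYT16. The 2 shNC libraries came from cells with a control short hairpin RNA, and the 2 shMETTL14 libraries from cells with a hairpin against METTL14. The hairpins were delivered by lentivirus and the cells were kept under drug selection, so each group is a selected mixture of cells and not a clone. The study made 2 hairpins against METTL14, and the labels say neither which was sequenced nor whether both libraries carried the same one. The labels number the libraries as replicates without saying that they came from separate cultures, so each p-value and standard error (SE) measures only the spread between these libraries. In bulk RNA, fewer cells of a type and less RNA per cell cannot be told apart.

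Synaptotagmins are membrane proteins of secretory and synaptic vesicles. Most carry an N-terminal transmembrane segment and tandem C2 domains, and in several members aspartates in the loops of these domains bind calcium and bring the domains onto membranes and SNARE proteins. SYT1 is the calcium sensor for fast neurotransmitter release, and SYT7 is a slower sensor of high calcium affinity that also acts on lysosomes and dense-core granules. SYT4 and SYT11 form a class in which an aspartate of the first C2 domain is replaced. SYT13, SYT14, SYT16 and SYT17 are regarded as members that do not bind calcium. Neuroblastoma cells are derived from the sympathetic lineage and carry dense-core vesicles, which store catecholamines. The names SYT5 and SYT9 have been exchanged in part of the literature, and both are used here as the human gene nomenclature gives them.

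Knockdown was visible in the targeted gene itself. METTL14 (ENSG00000145388) had 753 and 754 counts in the shNC libraries and 303 and 321 in the shMETTL14 libraries. Both shMETTL14 libraries were low, at 16.1 ± 0.851 CPM (counts scaled by library size with TMM factors; SD, n = 2) against 38.6 ± 1.13 in shNC. METTL14 fell by 1.26 on the log2 scale (SE 0.0832, edgeR quasi-likelihood test, adjusted p = 3.6e-11). Library depth ranged from 18925786 to 19886214 counts in genes, and the lines for reads given to no gene held 19.1% to 19.9% of all counts. Of 16309 genes tested, 8561 were called at an adjusted p under 0.05, of which 51.8% were higher in shMETTL14, or 41.7% with upper quartile scaling and 44.9% with library size alone. All 8 noradrenergic markers were present, of which 2, MYCN and ISL1, were higher in shMETTL14 and 6, among them PHOX2A, HAND2, GATA3, TH and DBH, were lower. Their sum was 4771 to 4816 CPM in shNC and 4970 to 5022 CPM in shMETTL14, but without MYCN (2596 to 2637 CPM against 3153 to 3193) the other 7 summed to 2175 to 2179 CPM in shNC and 1817 to 1828 CPM in shMETTL14. Of 6 mesenchymal and stromal markers, 5 could be tested, 1 was higher and 4 lower, and their sum was 525 to 527 CPM against 471 to 472. CD44 and PDGFRB made up most of that sum in all 4 libraries, and PRRX1 had at most 3 counts. YAP1, among the 4 lower, had 16 and 10 counts in shNC and 6 and 0 in shMETTL14. It passed the filter on low counts only through shNC, so its call is no support for a difference. Of 4 Schwann and glial markers, 3 could be tested, 0 were higher and 1 was lower, with a sum of 5.62 to 5.74 CPM against 3.83 to 4.73. The part of these shifts in the synaptotagmin values was not tested.

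All 10 synaptotagmins passed the filter on low counts, but their levels spanned a wide range. Of the 10, 8 were called and 9 had groups that did not overlap in CPM. Over all genes tested, 52.5% were called and 75.5% did not overlap. SYT9, SYT11, SYT14 and SYT4 were higher in shMETTL14, and SYT13, SYT17, SYT7 and SYT1 were lower. Over all genes tested, 27.2% were called higher and 25.3% lower. SYT3 and SYT5 were not called. The median log2 fold change of the 10 was -0.38, beside -0.00095 over all genes tested. No count here supports a statement on the family as a whole, since the 10 were chosen on this contrast. SYT13, among those lower, also passed the filter only through its shNC libraries.

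**Figure D1:**
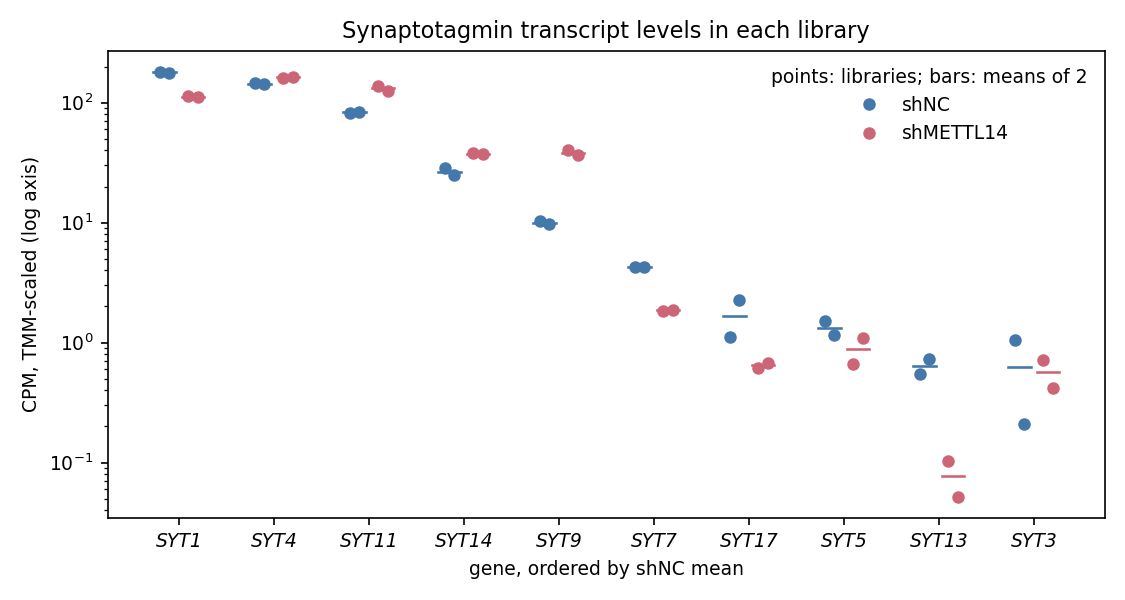
CPM after TMM scaling (log axis) of the 10 synaptotagmins in each library, with shNC in blue, shMETTL14 in red and a bar at the mean of the 2 libraries. The shMETTL14 libraries lie above both shNC libraries for SYT4, SYT11, SYT14 and SYT9 (36.6 CPM or more against at most 10.3), below them for SYT1, SYT7, SYT17, SYT5 and SYT13, and overlap them for SYT3.

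Of the 10, SYT9 moved furthest upwards. The gene is annotated at chr11:7238778-7469042, plus strand (GENCODE 29, GRCh38), and its protein belongs with SYT3, SYT6 and SYT10, a class with cysteines near the N-terminus. SYT9 had 206 and 186 counts in shNC and 787 and 704 counts in shMETTL14. Both shMETTL14 libraries were far above both shNC libraries, with no overlap, at 40.2 and 36.6 CPM against 10.3 and 9.71. The difference was 1.94 on the log2 scale (SE 0.0932), or 3.83-fold, and 0.601% of the genes tested had a higher fold change. An antisense gene, SYT9-AS1 (ENSG00000251364), shares 121 exon bases with SYT9 on the opposite strand. It had 74 and 51 counts in shNC and 18 and 16 in shMETTL14, and so fell by 1.86 on the log2 scale (SE 0.313, edgeR adjusted p = 3.3e-05) in the libraries in which SYT9 was high. The ratio of SYT9 to SYT9-AS1 counts went from 2.78 and 3.65 in shNC to 43.7 and 44.0 in shMETTL14. Whether the counting used strand is not given in the sources used here, so reads over the shared bases cannot be told apart.

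SYT11, which is linked to vesicle trafficking and the restraint of endocytosis, had 1651 and 1602 counts in shNC and 2717 and 2426 counts in shMETTL14. Both shMETTL14 libraries were above both shNC libraries, at 132 ± 8.99 CPM against 83.2 ± 0.585 (SD, n = 2), and the wider spread lay within the shMETTL14 pair. The difference was 0.67 on the log2 scale (SE 0.0502), or 1.59-fold, and 7.11% of the genes tested had a higher fold change. SYT4, its closest relative and a protein of dense-core vesicles whose gene responds to neuronal activity, had 2918 and 2729 counts in shNC and 3170 and 3158 in shMETTL14. The SYT4 groups also did not overlap, but they lay close together, at 163 ± 1.55 CPM against 144 ± 2.75. The log2 difference of SYT4 was 0.17 (SE 0.0423), the smallest among the called members, and it was 0.11 with upper quartile scaling. Within each library, the ratio of SYT11 to SYT4 counts was 0.566 and 0.587 in shNC and 0.857 and 0.768 in shMETTL14. SYT11 thus gained on SYT4 in both shMETTL14 libraries by 1.41-fold. SYT14, an atypical member that has been linked to inherited ataxia, had 567 and 477 counts in shNC and 743 and 717 in shMETTL14. Its shMETTL14 libraries were both higher, at 37.6 ± 0.489 CPM against 26.7 ± 2.50, and the log2 difference was 0.49 (SE 0.0795).

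SYT1, the sensor for fast release, is annotated at chr12:78863993-79452008, plus strand. It had 3595 and 3392 counts in shNC and 2214 and 2148 counts in shMETTL14. Both shMETTL14 libraries were low and the replicates of each group lay close together, at 112 ± 1.04 CPM against 179 ± 2.28 (SD, n = 2). SYT1 fell by 0.67 on the log2 scale (SE 0.0428), or 1.59-fold, the same size as the SYT11 difference in the other direction. The ratio of SYT1 to SYT11 counts was 2.18 and 2.12 in shNC and 0.815 and 0.885 in shMETTL14, so that SYT11 counts exceeded SYT1 counts in the shMETTL14 libraries only. SYT7, the slow sensor, had 85 and 82 counts in shNC and 36 and 36 in shMETTL14. The SYT7 groups were well separated, at 4.27 ± 0.0125 CPM against 1.85 ± 0.0226, and SYT7 fell by 1.20 on the log2 scale (SE 0.235). The ratio of SYT9 to SYT7 counts went from 2.42 and 2.27 in shNC to 21.9 and 19.6 in shMETTL14, an 8.83-fold difference.

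The remaining members were at low counts. SYT13, a member that is known from endocrine cells of the pancreas, had 11 and 14 counts in shNC and 2 and 1 in shMETTL14. SYT13 passed the filter only through its shNC libraries and so had to differ to be tested. Neither its call nor the interval below is therefore support for a difference. Summed over libraries and scaled, SYT13 counts were 8.28 times higher in shNC, with an exact 95% interval of 2.53 to 42.8 that covers counting error only. Its fitted log2 difference was -2.95 (SE 0.744), which was -3.47 without shMETTL14 replicate 1 and -2.57, no longer called, without shMETTL14 replicate 2, and the gene was not tested without shNC replicate 2. SYT17, which lacks the transmembrane segment, had 22 and 43 counts in shNC and 12 and 13 in shMETTL14. The SYT17 groups did not overlap, but its shNC libraries differed from each other by more than its shMETTL14 libraries did. SYT17 counts were 2.58 times higher in shNC (exact 95% interval 1.61 to 4.28, counting error only), and the log2 difference of -1.36 (SE 0.422) was -0.77 and no longer called without shNC replicate 2. SYT17 was also not called by DESeq2, which gave -1.38.

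SYT5, the closest relative of SYT1 among the 10, had 30 and 22 counts in shNC and 13 and 21 in shMETTL14. The lower shNC library and the higher shMETTL14 library nearly met, at 1.15 and 1.09 CPM. The log2 difference of SYT5 was -0.60 (SE 0.393), with a count ratio of 0.658 for shMETTL14 over shNC and an exact 95% interval of 0.414 to 1.03. SYT3, known for its part in the removal of glutamate receptors from the postsynaptic membrane, had 21 and 4 counts in shNC and 14 and 8 in shMETTL14. Both shMETTL14 values lay between the shNC values. The log2 difference of SYT3 was -0.17 (SE 0.585), but it was 1.41 without shNC replicate 1 and 0.17 without shMETTL14 replicate 2, so these counts give SYT3 no direction. Its count ratio of 0.886 had an exact 95% interval of 0.476 to 1.64.

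**Figure D2:**
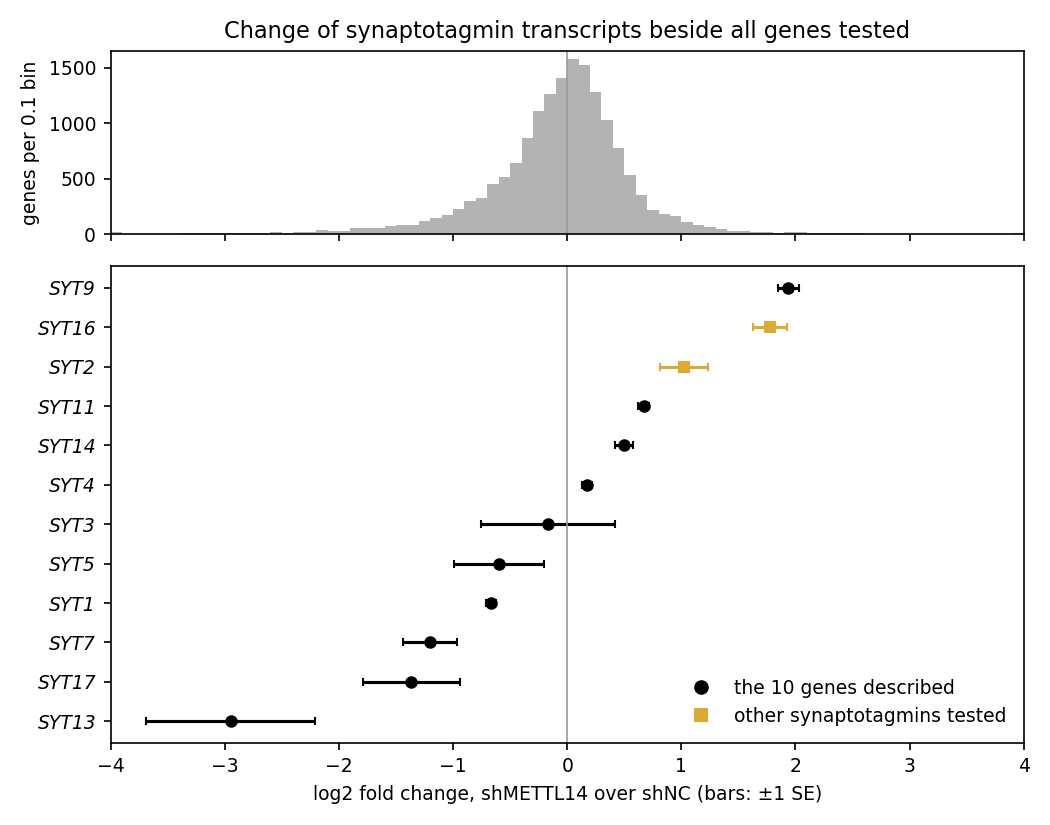
Log2 fold change of shMETTL14 over shNC for the 10 synaptotagmins (circles) and the other members of the family that could be tested (squares), with bars of ±1 SE, below a histogram of the fold changes of all genes tested in bins of 0.1. The family spreads from -2.95 for SYT13 to 1.94 for SYT9, with long bars for the low-count genes SYT3, SYT5, SYT17 and SYT13. SYT13 passed the filter on low counts only through its shNC libraries.

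The levels of different genes were compared as CPM per kb of merged exons. In shNC, SYT4 was the most abundant member at 32.6 ± 0.619 CPM per kb (SD, n = 2), followed by SYT1 at 27.5 ± 0.351 and SYT11 at 15.9 ± 0.112. SYT9 at 2.12 ± 0.0930 and SYT14 at 1.92 ± 0.180 came next, then SYT7 at 0.718 ± 0.00210. In shMETTL14 the order of the leading genes was SYT4 at 36.7 ± 0.349, SYT11 at 25.3 ± 1.72, SYT1 at 17.3 ± 0.160, SYT9 at 8.12 ± 0.541 and SYT14 at 2.70 ± 0.0351. SYT11 and SYT1 had thus changed places, and no 2 neighbours among these 5 genes overlapped in either group. Below SYT7 (0.312 ± 0.00379 in shMETTL14), SYT5, SYT17, SYT3 and SYT13 lay at or under 0.248 CPM per kb in shNC and at or under 0.164 in shMETTL14. In shNC, each of SYT17, SYT3 and SYT13 overlapped the gene above it in the order, and in shMETTL14 SYT3 overlapped SYT5.

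As a share of the summed CPM per kb of all 18 synaptotagmins, SYT4 held 39.7% ± 0.160 in shNC and 39.8% ± 1.24 in shMETTL14 (SD, n = 2). The share of SYT1 was 33.5% ± 0.0742 in shNC and 18.7% ± 0.235 in shMETTL14. SYT11 held 19.4% ± 0.426 and 27.3% ± 1.26, and SYT9 held 2.58% ± 0.0747 and 8.79% ± 0.394. SYT14 held 2.33% ± 0.184 and 2.92% ± 0.0256. The sum itself was 82.9 and 81.2 CPM per kb in shNC and 93.8 and 90.9 in shMETTL14. It was thus somewhat larger in these shMETTL14 libraries, with a smaller part of SYT1. With the longest coding transcript as length, the sum rose less, from 96.3 and 94.2 in shNC to 105 and 102 in shMETTL14. The sum was computed with TMM scaling only, and its rise under other scalings was not tested. It includes the genes chosen on this contrast, so it supports no statement on the family as a whole. With the length of the longest coding transcript in place of merged exons, SYT1 led in shNC with 39.0% and SYT4 followed with 36.9%, so that the order of these genes in shNC depends on the length used. In shMETTL14 SYT4 led with either length.

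**Figure D3:**
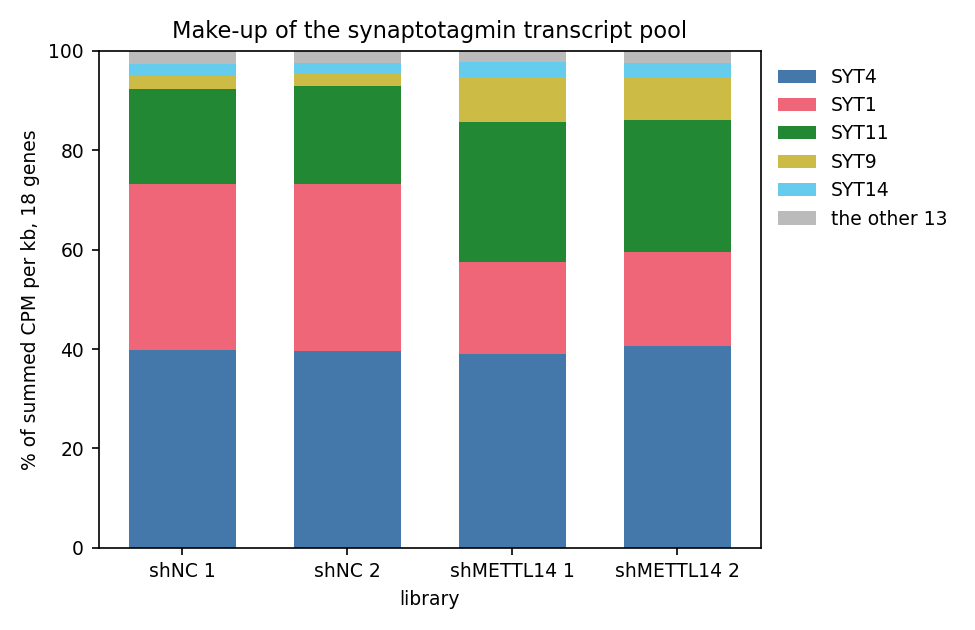
Stacked bars of the percentage of the summed CPM per kb of 18 synaptotagmin genes that each gene held in each of the 4 libraries. The SYT1 segment is narrower in both shMETTL14 libraries (18.7% against 33.5% on average), the SYT11 and SYT9 segments are wider, and the SYT4 segment is near 40% throughout.

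The 8 family members that were not among the 10 were set beside them. Of these 8 genes, only SYT2 and SYT16 had enough counts to test, and both rose. SYT2, a fast calcium sensor of brainstem and neuromuscular synapses, had 51 and 46 counts in shNC and 94 and 102 in shMETTL14. Both shMETTL14 libraries were above both shNC libraries, and the log2 difference was 1.02 (SE 0.207, edgeR adjusted p = 2.6e-04). Of its 7774 exon bases, SYT2 shares 2111 with PPP1R12B on the opposite strand. PPP1R12B had 502 and 503 counts in shNC and 547 and 479 in shMETTL14. Since the use of strand in the counting is not given, reads over the shared bases cannot be told apart. SYT16, the closest relative of SYT14, had 75 and 65 counts in shNC and 225 and 251 in shMETTL14. Its shMETTL14 libraries were again both high, and the log2 difference was 1.77 (SE 0.150, edgeR adjusted p = 2.1e-09). The other 6 genes had at most 11 counts in any library, and SYT15B had 0 in all 4. SYT15 and SYT15B encode identical proteins in this annotation, so reads of these copies may not have been assigned to either.

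Amino acid identity from pairwise alignment of the proteins was set beside the fold changes. Identity played no part in the choice of genes, but the fold changes did. The proteins were translated from the coding sequences of GENCODE 29. SYT1 and SYT2 were the closest pair that involved a measured member, with 78.3% identity over 414 aligned residues, and they lay on opposite sides of 0, at -0.67 and 1.02. The ratio of SYT1 to SYT2 counts was 70.5 and 73.7 in shNC and 23.6 and 21.1 in shMETTL14, a 3.23-fold difference. The SYT2 counts carry the limit of the exon overlap with PPP1R12B given above. SYT5 was close to both, with 59.8% identity to SYT1 and 61.5% to SYT2, and had the uncertain value of -0.60. SYT9 and SYT3 had 55.2% identity, with log2 differences of 1.94 and -0.17, of which the SYT3 value has no sure direction. SYT10 and SYT6 were closer to SYT9, at 60.2% and 60.0%, but had too few counts to test. SYT4 and SYT11, at 53.9% identity over 423 residues, were both higher, and SYT14 and SYT16, at 43.4% over 627 residues, were both higher too. The ratio of SYT14 to SYT16 counts nevertheless fell from 7.56 and 7.34 in shNC to 3.30 and 2.86 in shMETTL14. SYT7 and SYT17 had no relative above 45.1% and 36.6% identity, and SYT13 none above 33.3%. Close relatives therefore lay both on the same side and on opposite sides of 0 in these libraries.

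**Figure D4:**
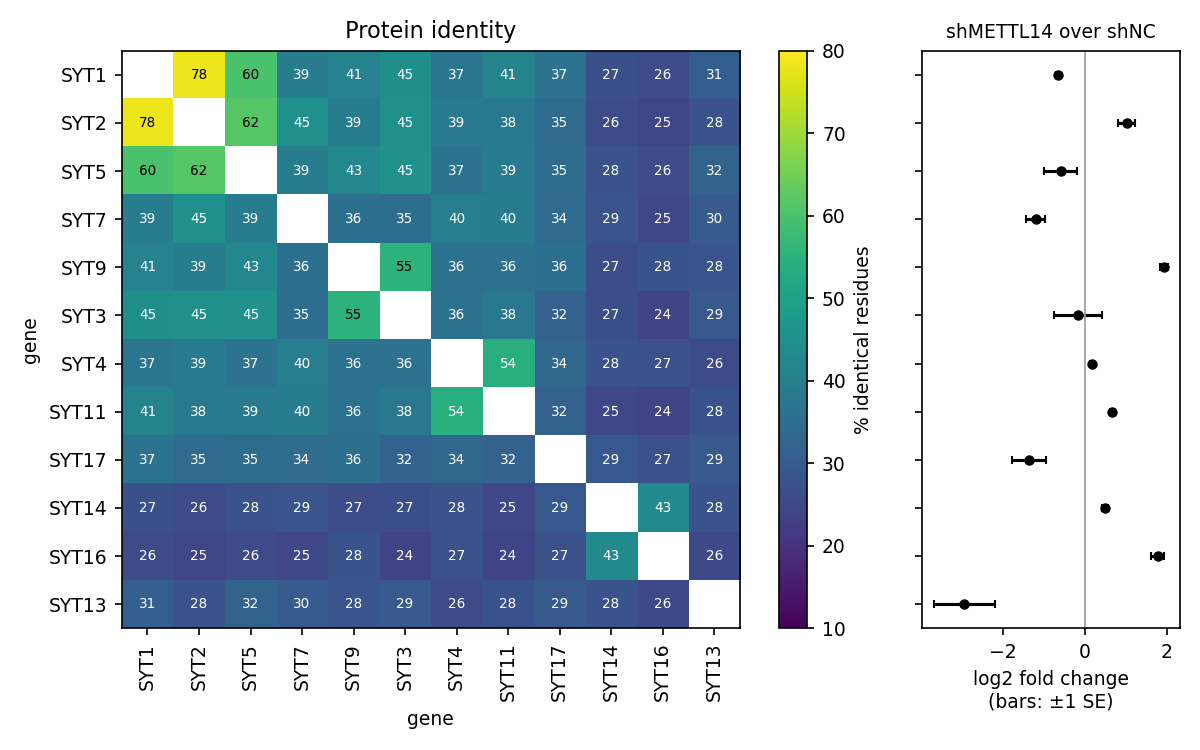
Percentage of identical residues between each pair of the 12 synaptotagmin proteins whose genes were tested (left, colour scale in %), beside the log2 fold change of shMETTL14 over shNC of the gene in the same line (right, bars of ±1 SE). SYT1 and SYT2, with the highest identity at 78.3%, lie on opposite sides of 0, whereas SYT4 and SYT11 lie on the same side, as do SYT14 and SYT16. SYT2 shares exon bases with PPP1R12B on the opposite strand.

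The proteins were also searched for the arrangement of 3 aspartates (aspartate, any residue, aspartate, 5 residues, aspartate) that the calcium-binding loops hold in both C2 domains of SYT1. SYT1 and SYT7 held 2 copies each, and SYT3, SYT5 and SYT9 held 1 each. SYT4, SYT11, SYT13, SYT14 and SYT17 held 0. When the last residue was also allowed to be glutamate, a form added after the first counts were seen, SYT3, SYT5 and SYT9 held 2 copies, SYT7 held 3, SYT11 and SYT17 held 1, and SYT4, SYT13 and SYT14 held 0. Of the 5 members with the strict pattern, SYT9 was higher, SYT1 and SYT7 were lower, and SYT3 and SYT5 were not called. Of the 5 without it, SYT4, SYT11 and SYT14 were higher and SYT13 and SYT17 lower. Beside these, 52.5% of all genes tested were called, 27.2% higher and 25.3% lower. SYT13 passed the filter on low counts only through its shNC libraries, so its call is no support for a difference. SYT17 was not called by DESeq2. The members were chosen because the family moved in opposite directions. These calls therefore cannot decide whether direction goes with the pattern.

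Since METTL14 acts in the deposition of m6A, the transcripts were searched for GGACT, a common form of the m6A consensus. The search used the transcript strand of the longest coding transcript of each gene in GENCODE 29, and overlapping copies cannot occur. SYT9 held 9 copies, or 2.28 per kb, and 95.2% of 12788 genes tested held fewer per kb. SYT7 held 9 copies, or 1.85 per kb (89.3% of genes held fewer), SYT5 1.58 per kb and SYT3 1.37 per kb, all above the median of 0.926 over the genes tested. The other 6 members were below that median, at 0.786 per kb in SYT17, 0.624 in SYT1, 0.583 in SYT13, 0.573 in SYT11, 0.442 in SYT14 and 0.243 in SYT4. The member with most copies per kb was the most raised, the second, SYT7, was lowered, and SYT11, raised as well, held few. The members were chosen on this contrast, so these values cannot decide whether direction goes with the copies. Of the 10, 7 had a copy within 200 bases of the start of the stop codon, where m6A is often found, beside 37.3% of the genes tested. Each of these windows is shown because it is the copy closest to the stop codon, with 10 bases on either side, 5′ to 3′ on the transcript strand, and the capitals mark GGACT.
SYT9: atgggtaagaGGACTgcttgtgcca
SYT11: acagagaagtGGACTccaaacctca
SYT7: aggggtcccaGGACTcaactgggcc
SYT5: ggccaagcctGGACTctagcccctg
SYT1: taactgttttGGACTatgacaagat
SYT14: ctcaatcactGGACTgaaatgaaag
SYT3: aggcagcaaaGGACTatcagagaaa

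The first 4 of these windows lie in 3′ UTRs. The distances given here are those of the A in GGACT. On GRCh38, the SYT9 window is chr11:7466803-7466827 (plus strand, exon 7 of 7), with this A 17 bases after the start of the stop codon. The SYT11 window is chr1:155881575-155881599 (plus strand, exon 4 of 4), 81 bases after it. The SYT7 window is chr11:61518475-61518499 (minus strand, exon 9 of 9), 142 bases after it, and the SYT5 window is chr19:55173441-55173465 (minus strand, exon 9 of 9), 33 bases after it. The other 3 windows are coding. The SYT1 window is chr12:79448934-79448958 (plus strand, exon 11 of 11), and its GGACT covers codons 363 to 365, which include the first aspartate of the second calcium-binding pattern at residue 364. The SYT14 window is chr1:210160968-210160992 (plus strand, exon 10 of 10), and the SYT3 window is chr19:50622705-50622729 (minus strand, exon 8 of 9). These matches describe the sequence, and no m6A was measured in these libraries.

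Other proteins with tandem C2 domains outside the synaptotagmins were taken from a list of 14 genes, of which 13 could be tested. Of these 13, 7 were called, 1 higher and 6 lower, beside 52.5% of all genes tested (27.2% higher and 25.3% lower), so the share called was near that of all genes. The median log2 fold change was -0.68, beside -0.00095 over all genes tested. The 6 lower genes and the median include SYTL2 and SYTL4, whose passage through the filter is given below. SYTL4, which holds secretory granules at the plasma membrane, had 68 and 76 counts in shNC and 18 and 5 in shMETTL14, and fell by 2.63 on the log2 scale (SE 0.365). MCTP2, a membrane protein of the endoplasmic reticulum, had 554 and 547 counts in shNC and 157 and 152 in shMETTL14, and fell by 1.82 (SE 0.0995, edgeR adjusted p = 1.7e-12). SYTL4 passed the filter on low counts only through its shNC libraries, where it was high. Its call is therefore no support for a difference. Both shMETTL14 libraries were low for each of these genes, although the SYTL4 counts of that group lay far apart and its log2 difference was -3.79 without shMETTL14 replicate 1 and -1.99 without shMETTL14 replicate 2. SYTL2, an effector of Rab27, had 20 and 20 counts in shNC and 10 and 3 in shMETTL14, with a log2 difference of -1.59 (SE 0.525). Like SYT13, SYTL2 passed the filter only through its shNC libraries, so its call is no support for a difference. It was no longer called without shNC replicate 1 (-1.63), shNC replicate 2 (-1.56) or shMETTL14 replicate 2 (-0.99). ESYT1, which tethers the endoplasmic reticulum to the plasma membrane, rose by 0.24 (SE 0.0466, edgeR adjusted p = 1.7e-04), from 1928 and 1841 counts in shNC to 2290 and 2131 in shMETTL14. With SYT2 and SYT16 included, 15 tandem C2 genes outside the 10 could be tested, with a median of -0.58. Of these, 3 were called higher and 6 lower, with SYTL2 and SYTL4 again among the lower.

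The proteins that synaptotagmins work with in vesicle release were taken from a list of 25 genes, of which 19 could be tested. Of these 19, 10 were called, 7 higher and 3 lower, beside 52.5% of all genes tested (27.2% higher and 25.3% lower), so the share called was near that of all genes. The median log2 fold change was 0.11, beside -0.00095 over all genes tested, and the count of lower calls went from 0 to 5 over the alternatives. CPLX1, a complexin that clamps assembled SNARE complexes, had 319 and 297 counts in shNC and 571 and 606 in shMETTL14, and rose by 0.94 (SE 0.0875, edgeR adjusted p = 8.5e-09). UNC13A, a priming factor, rose by 0.66 (SE 0.0520, edgeR adjusted p = 5.7e-10), from 1158 and 1148 to 1884 and 1748 counts. CADPS, which primes dense-core vesicles, rose by 0.53 (SE 0.0757, edgeR adjusted p = 3.8e-06), from 542 and 488 to 754 and 727 counts. These shMETTL14 libraries were above both shNC libraries for each of the 3 genes. Of the genes that fell, NAPB (-0.27) and SNAP25 (-0.17) were not called by DESeq2 or with no filter on low counts. NAPB also lost its call without shNC replicate 1 (-0.18) or shMETTL14 replicate 1 (-0.15). SNAP25 did so without shNC replicate 1 (-0.16) or shMETTL14 replicate 2 (-0.12). DESeq2 called 6 genes of this list, all higher.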

How the data were processed

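RNA was measured in 4 libraries of SK-N-BE(2) cells, 2 with shNC and 2 with shMETTL14. The authors deposited raw counts of reads per Ensembl gene, with no normalization. The submitters' processing notes name HISAT2 2.1.0, StringTie 1.3.6, HTSeq 0.13.5, edgeR and GRCh38, and the strand setting and annotation release are not given in the sources used here. Lines that name no gene were left out. Symbols came from a gene name table that held 60401 of the 60671 IDs, and positions from GENCODE 29, which held 58453.

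Counts were tested with edgeR 4.0.16 (R 4.3.3; TMM, filterByExpr defaults of 10 for the count and 15 for the total, quasi-likelihood F-test, group only). Adjustment was by Benjamini-Hochberg over the 16309 genes kept, and called means an adjusted p below 0.05. Each SE is the log2 difference over the root of F. An exact permutation test of 2 against 2 cannot go below p = 0.333, so each call rests on the variance shared across genes. On simulated counts, 75.5% of genes changed by 0.5 on the log2 scale were recovered among 16206 tested, with 1.31% of calls false. Only 200 genes were changed there, above a mean count that SYT3 and SYT13 do not reach, and all genes shared the same dispersion. These rates therefore do not carry over to the data, where far more genes were called. DESeq2 1.42.0, other scalings, filters, a replicate block and leaving out each library were tried. Ratios of low counts have exact Clopper-Pearson 95% intervals, which cover counting error only. For members chosen on this contrast, these intervals are no support for a difference. Proteins were aligned globally with BLOSUM62 in Biopython 1.88.

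The 10 members and all lists were chosen with earlier results of these data known. Genes named were METTL14, the 10 members, all other SYT genes, the 3 highest and 3 lowest called genes of the tandem C2 and release lists, the markers and REST, of which some are not reported here. SYT9-AS1 and PPP1R12B were added because their exons overlap those of a synaptotagmin. The mean chi-square per gene was 2.66 and 2.21 within the groups and 30.5 to 31.5 between them, so no library was a copy of another.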

Additional observations from a re-analysis of the deposited data

How the results depend on the processing

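The members were chosen on this contrast, so their calls under the alternatives are no support for their differences. The call of 8 members was kept in number with every scaling and with no filter, and was 7 with DESeq2 and with a minimum of 10 counts per library. It was 6 to 8 when single libraries were left out. Over all genes, 8561 calls became 6022 with DESeq2, 7996 with no filter and 7287 to 7458 without single libraries. Of 270 values of 25 named genes under the alternatives, 249 kept direction and side of the threshold, 19 were no longer called and 2 changed sign. The sign changes were those of SYT3, to 1.41 without shNC replicate 1 and 0.17 without shMETTL14 replicate 2, in a range from -0.88 to 1.41 over left-out libraries. Release genes called went from 10 (3 lower) to 6 with DESeq2 and 7 with no filter (0 lower in each), 12 with upper quartile scaling (5 lower), 11 with library size alone or a minimum of 10 counts (4 lower in each), and 8 to 9 without single libraries. The cause was not tested. With the longest coding transcript as length, the shares in shNC and shMETTL14 were 39.0% and 22.6% for SYT1, 36.9% and 38.4% for SYT4, 16.7% and 24.4% for SYT11, 2.66% and 9.39% for SYT9, and 2.06% and 2.68% for SYT14. With a replicate block, 8926 genes, 8 members, 10 tandem C2 genes and 10 release genes were called. The numbers were not taken to pair the libraries, since deviations of libraries with the same number correlated at -0.0018 (Pearson) and 0.0221 (Spearman) across 16309 genes. Depth limits SYT3, SYT5, SYT13 and SYT17, which had at most 43 counts in any library.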

Other observations

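REST, the repressor of many neuronal genes, had 616 and 590 counts in shNC and 298 and 253 in shMETTL14, and fell by 1.12 on the log2 scale (SE 0.0914, edgeR adjusted p = 1.1e-09). Its part in the synaptotagmin values was not tested.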
